A study of Mus musculus with 15 samples.

Results

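The genes described here encode proteins that sit where the contractile lattice of a muscle fibre is anchored and strained: Ankrd1, Ankrd2, Ankrd23, Csrp3, Actc1, Xirp1, Xirp2, Flnc, Nrap and Bag3. They were chosen by symbol, and all 10 were found among the 20406 genes of the deposited expected count table and passed the filter on low counts. RNA was sequenced from the plantaris, a fast ankle extensor muscle, in 15 libraries of 5 groups with 3 libraries each. All mice were adult males. The design text gives them a histone-fused green fluorescent protein under a tetracycline-dependent transactivator that the human skeletal actin promoter drives, which marks the nuclei of muscle fibres, in trained, detrained and untrained mice alike. The name 6M_POW_LD is used here for the 6-month libraries titled POW4 to POW6, the trained replicates 4 to 6, whose identifiers carry the letters LD, a code not explained in the sources used here. The 9M_PoW+DT mice ran against a progressively weighted wheel (PoWeR) for 8 weeks from 4 months of age, rested for 12 weeks and were 9 months old. The 6M_PoW mice ran for the same 8 weeks and were taken at 6 months. The 9M_UT and 6M_UT mice did not train and were 9 and 6 months old.

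A sarcomere is bounded by Z-discs, to which actin filaments and the elastic protein titin are fixed, and muscle reads strain partly through proteins bound there. When fibres are stretched, overloaded or torn, some of these proteins move between the Z-disc and the nucleus, some gather at the lesion, and some hand damaged filamin over to chaperones and autophagy. In the heart several of the same genes are known as markers of wall stress, and Actc1, the actin of the adult heart, is made by skeletal muscle mainly before birth and during regeneration.

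Library totals ran from 18865037 to 27688826 counts, and the 10 most abundant genes held 24.9% to 27.9% of a library. Groups follow the titles. The treatment field contradicts the title in 3 libraries each of 6M_POW_LD, which it calls sedentary, and of 9M_PoW+DT and 9M_UT, whose conditions it exchanges. Exchanging the 9-month groups turns round the sign of every 9M_PoW+DT over 9M_UT value given here and changes every other value that rests on a 9-month group. For Ankrd1 it gives 2.04 on the log2 scale in 9M_PoW+DT over 6M_PoW (adjusted p 0.000931), 0.30 in 9M_UT over 6M_UT (0.945) and 1.74 in the difference of the folds against untrained mice (0.169). Identifiers carry other letters at 9 months than in 6M_UT and 6M_PoW, so the series of libraries and age cannot be told apart. The LD libraries carry other letters again at 6 months. In every comparison of 6M_POW_LD with 6M_UT, series and titled training therefore cannot be told apart. Between 6M_POW_LD and 6M_PoW, titled as trained at the same age, 365 genes passed an adjusted p of 0.05 in edgeR. Levels are in CPM, counts after scaling each library to a total of 1000000. Skeletal muscle markers summed to at least 95853 CPM in every library. The 4 cardiac markers in the table summed to 0.990 to 5.50 CPM in a library. Nppa and Tnni3 stayed at or below 0.590 and 0.148 CPM, while Myh6 and Tnnt2 reached 3.88 and 1.97 CPM and were at 0 in no library. RNA came from whole muscle, in which fewer cells of a type and less RNA per cell cannot be told apart.

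Of the 10 genes, Ankrd1 and Actc1 were each called once at an adjusted p under 0.05, in different comparisons. Ankrd1 was higher in 9M_PoW+DT than in 6M_PoW, and Actc1 was higher in 6M_POW_LD than in 6M_UT. Xirp1 and Ankrd1 both had their highest mean levels in 9M_UT, as did Ankrd23, Csrp3, Flnc, Nrap and Bag3. No gene other than Ankrd1 and Actc1 was called in any comparison. Per kilobase of exon, the mean level over the 15 libraries was highest for Ankrd23, at 594 CPM per kilobase, followed by Nrap at 308.5, Xirp2 at 203, Flnc at 128, Ankrd2 at 78.1 and Bag3 at 60.2. Csrp3 and Xirp1 stood at 45.0 and 44.6 CPM per kilobase, and Actc1 and Ankrd1 at 3.78 and 3.58.

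**Figure D1:**
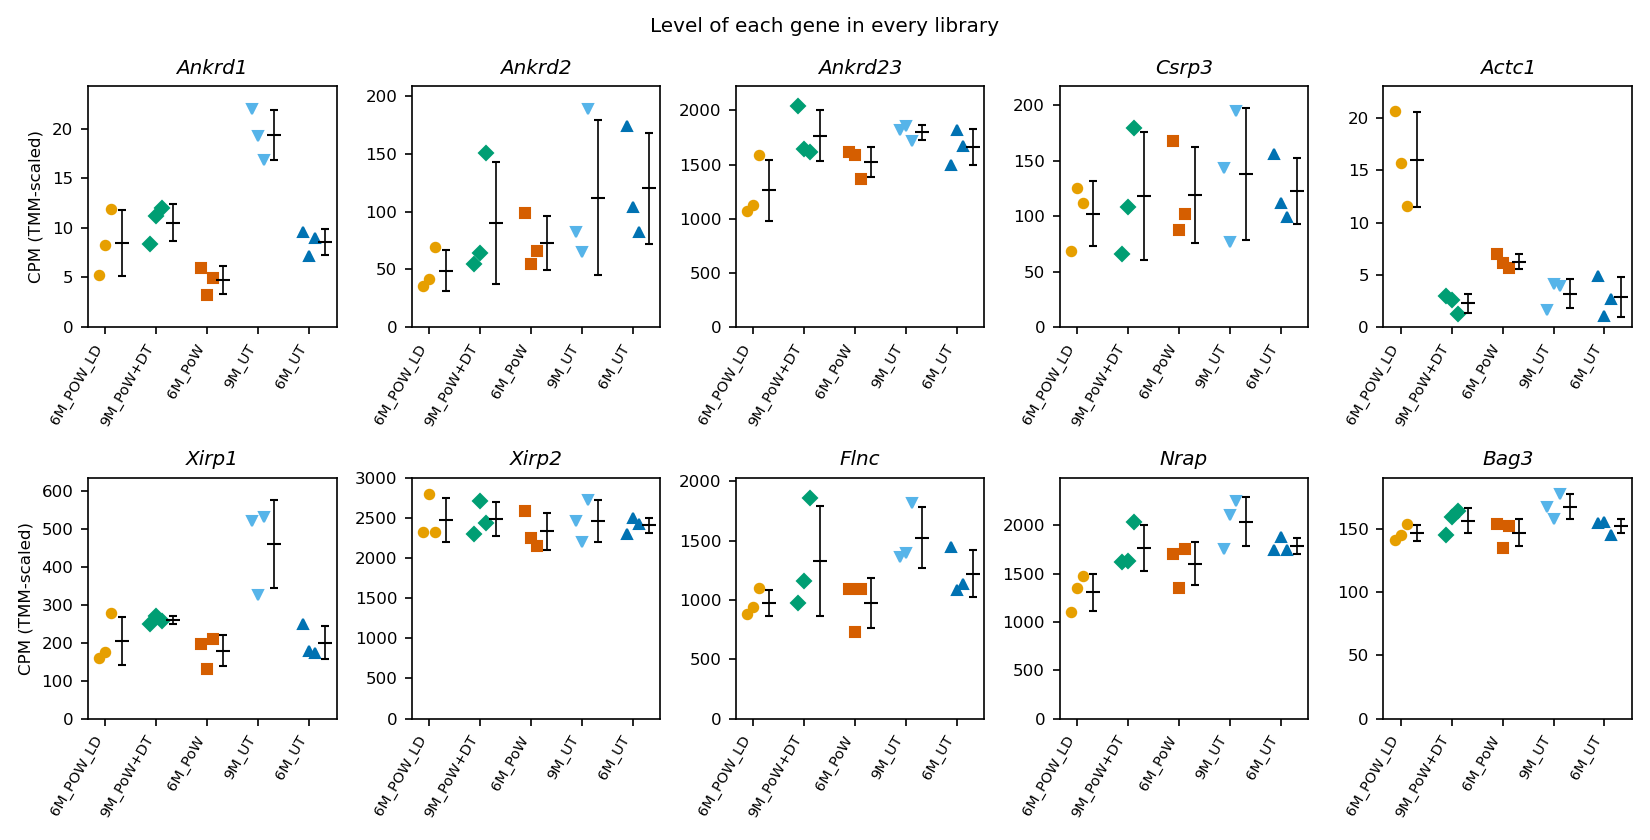
Level of each gene in every library, in CPM scaled with trimmed mean of M values factors, by group; points are libraries, the dash and bar beside them the mean and SD of the 3 libraries, and each vertical axis starts at 0. The 3 9M_UT points of Ankrd1 lie at 16.9 to 21.9 CPM, above every other library, and the 3 6M_POW_LD points of Actc1 lie at 11.6 to 20.7 CPM, above every other library.

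Ankrd1, Ankrd2 and Ankrd23 make up the muscle ankyrin repeat proteins, which bind the N2A stretch of titin in the I-band and can also be found in the nucleus. Ankrd1 encodes CARP, known in the heart as an early response to pressure load. The gene lies on chromosome 19 at 36111961 to 36120099 (mm10, minus strand). In the RefSeq promoter of Ankrd1 (GRCm38.p6, minus strand, from 250 bases before the start) the MCAT motif CATTCC was found at 2 places on the opposite strand to the gene, so that its complement is read here. The motif is the binding element of the TEAD factors, the nuclear partners of YAP and TAZ. These are the matches with 12 bases on each side, the motif in capitals, at chr19:36120037-36120066 and chr19:36119950-36119979.
Ankrd1 match 1: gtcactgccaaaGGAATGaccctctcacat
Ankrd1 match 2: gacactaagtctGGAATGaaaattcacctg
The motif is also in 12.6% of the 32851 RefSeq promoters searched on both strands, and among the 9 genes of the list with a promoter entry it was found for Ankrd1, Ankrd23 and Flnc. These are letter matches only, and binding was not measured.

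Ankrd1 had 8.38, 11.2 and 12.0 CPM in 9M_PoW+DT, against 5.99, 3.25 and 4.94 CPM in 6M_PoW. The lowest detrained library thus lay above the highest trained one. The 2 groups differ in rest, age and series of libraries together, and these cannot be told apart in this comparison. The log2 fold change was 1.16 ± 0.21 (SE), a ratio of 2.23, with an adjusted p of 0.0317 in edgeR's quasi-likelihood test over 14919 genes. In this comparison 44 genes were called, 0.295% of those tested, and Ankrd1 was 1 of 10 members. The call ended without 6M_PoW replicate 2 (0.94, adjusted p 0.145), 6M_PoW replicate 3 (1.19, 0.0815), 9M_PoW+DT replicate 2 (1.11, 0.0814), 9M_PoW+DT replicate 3 (1.05, 0.116) or 9M_UT replicate 2 (1.16, 0.0541). It also ended with only the 2 groups compared (1.16, adjusted p 0.0564), with all 15 libraries in the fit (1.16, 0.0661) and in limma-voom (1.21, 0.0648). Markers of other cells moved in the same comparison. The mean log2 CPM of 5 adipocyte markers was 1.43 to 3.44 in 9M_PoW+DT and -0.10 to 0.29 in 6M_PoW, that of 6 fibro-adipogenic progenitor markers 5.05 to 5.44 in 9M_PoW+DT and 5.46 to 5.88 in 6M_PoW, and that of 6 endothelial markers 5.07 to 5.33 in 9M_PoW+DT and 5.44 to 5.64 in 6M_PoW. Their part in the Ankrd1 values was not tested.

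Trained muscle was also below untrained muscle of the same age in each library, without passing the test. Against the 5.99, 3.25 and 4.94 CPM of 6M_PoW, the 6M_UT libraries had 9.62, 7.11 and 8.94 CPM, and the groups did not overlap. The log2 fold change was -0.86 ± 0.21, with an adjusted p of 0.194. At 9 months the libraries of 9M_PoW+DT likewise lay below those of 9M_UT, which had 21.9, 19.3 and 16.9 CPM. Here the log2 fold change was -0.88 ± 0.20 (adjusted p 0.436). The 2 folds against untrained mice differed by -0.02 ± 0.30, with a 95% interval from -0.65 to 0.61. DESeq2 called both folds, at adjusted p 0.0271 for 6M_PoW over 6M_UT and 0.0242 for 9M_PoW+DT over 9M_UT. limma-voom called neither (0.220 and 0.344). No edgeR fit that left out 1 library called either, with lowest adjusted p of 0.171 and 0.281. Between the untrained groups, all 3 9M_UT libraries stood above the 3 of 6M_UT, by 1.18 ± 0.20 (adjusted p 0.0554, the 8th smallest p of 14919 genes). That p crossed the threshold in DESeq2 (7.68e-05), with no filter on low counts (0.0190), with only the 2 groups compared (0.0292) and without 9M_PoW+DT replicate 3 (0.0394). It did not cross in limma-voom (0.0639), and it rose to 0.299 without 6M_UT replicate 2 and to 0.315 without 9M_UT replicate 1. The comparisons that share a group of libraries are not independent of each other: 6M_PoW, 9M_PoW+DT, 9M_UT and 6M_UT each enter 2 of the 4 folds above.

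In 6M_POW_LD, Ankrd1 had 5.27, 8.24 and 11.9 CPM, a range that overlaps with both 6M_PoW and 6M_UT. Over 6M_UT the log2 fold change was -0.01 ± 0.26, and over 6M_PoW it was 0.85 ± 0.27 (adjusted p 0.117). Without 6M_POW_LD replicate 4, the fold over 6M_PoW was 1.10 with an adjusted p of 0.0324, and without 6M_POW_LD replicate 6 it was 0.53 with an adjusted p of 0.419. The group means were 8.46 ± 3.32 CPM in 6M_POW_LD, 10.5 ± 1.88 in 9M_PoW+DT, 4.73 ± 1.38 in 6M_PoW, 19.4 ± 2.52 in 9M_UT and 8.56 ± 1.30 in 6M_UT (SD, n = 3 each). The order from low to high was thus 6M_PoW, 6M_POW_LD, 6M_UT, 9M_PoW+DT and 9M_UT, and of the neighbours in it, 9M_PoW+DT and 9M_UT were the 1 pair that did not overlap. Between 88 and 470 counts lay behind each value.

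Ankrd2, on chromosome 19 at 42036000 to 42045110, encodes the family member best known from slow and stretched skeletal muscle. It had 35.8, 41.6 and 69.3 CPM in 6M_POW_LD, 55, 64.5 and 150.6 CPM in 9M_PoW+DT and 99.1, 54.5 and 65.5 CPM in 6M_PoW. The untrained libraries had 82.6, 64.8 and 188.6 CPM in 9M_UT and 174.2, 103.8 and 82.7 CPM in 6M_UT. In 9M_PoW+DT, 9M_UT and 6M_UT, 1 muscle stood well above the other two. The 6M_POW_LD libraries were all below those of 6M_UT, with a log2 fold change of -1.30 ± 0.53 that did not pass (adjusted p 0.210). Elsewhere the folds ran from -0.72 ± 0.55 in 6M_PoW over 6M_UT to 0.30 ± 0.55 in 9M_PoW+DT over 6M_PoW. The 95% interval of 6M_PoW over 6M_UT, from -1.98 to 0.54, covers values of either sign.

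Ankrd23, on chromosome 1 at 36530188 to 36536883, encodes DARP and took most of the family's counts per length. Its share of the 3 family members, each per kilobase, averaged 91.2% ± 1.11 in 6M_POW_LD, 88.7% ± 6.43 in 9M_PoW+DT, 89.6% ± 2.64 in 6M_PoW, 86.6% ± 6.85 in 9M_UT and 85.0% ± 6.08 in 6M_UT. The gene ranged from 1069 CPM in 6M_POW_LD replicate 4 to 2042 CPM in 9M_PoW+DT replicate 1. Its steadiest group was 9M_UT, at 1715 to 1853 CPM. No comparison passed for Ankrd23 in edgeR with all libraries. The largest fold was -0.40 ± 0.14 in 6M_POW_LD over 6M_UT (adjusted p 0.116), where 6M_POW_LD replicate 6, at 1589 CPM, overlapped with the untrained muscles. DESeq2 called this fold (-0.40, adjusted p 0.0450), and limma-voom did not (-0.41, adjusted p 0.0746). Without 6M_POW_LD replicate 6, Ankrd23 was at -0.60 over 6M_UT (adjusted p 0.00648) and -0.47 over 6M_PoW (0.0408). Without 6M_POW_LD replicate 4, it was at -0.29 over 6M_UT and -0.16 over 6M_PoW. Across the edgeR fits that left out 1 library, the adjusted p reached 0.337 over 6M_UT and 0.741 over 6M_PoW.

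Xirp1 and Xirp2 encode the Xin actin-binding repeat proteins, which bundle actin at attachment sites of the myofibril. Xin, the product of Xirp1, is known to gather at damaged stretches of a fibre. Xirp1 lies on chromosome 9 at 120013755 to 120023598. It had 249.6, 270.6 and 256.5 CPM in 9M_PoW+DT, against 520.6, 325.1 and 531.1 CPM in 9M_UT. The 3 detrained muscles lay close together and below the lowest untrained one. The log2 fold change was -0.83 ± 0.23, and it did not pass in edgeR (adjusted p 0.646) or limma-voom (0.610), while DESeq2 called it at 0.0241. The 9M_UT libraries were also all above the 249.8, 178.7 and 171.7 CPM of 6M_UT, by 1.20 ± 0.24 (adjusted p 0.245 in edgeR, 0.112 in limma-voom and 6.37e-06 in DESeq2). No edgeR fit that left out 1 library called that fold (adjusted p 0.0911 to 0.574). The 6M_PoW libraries had 195.2, 131.5 and 210.3 CPM, overlapping with 6M_UT (-0.16 ± 0.23), and those of 9M_PoW+DT were all above them (0.53 ± 0.23, adjusted p 0.387). In 6M_POW_LD the gene had 160.6, 174.4 and 277.7 CPM, and replicate 6 alone exceeded 6M_UT.

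Xirp2 lies on chromosome 2 and ends at 67526615. The deposited table starts it at 67173834, which is 272168 bases upstream of the start in GENCODE M21, so counts over a wider stretch than the gene cannot be told from its own. It was the steadiest of the abundant genes, ranging from 2153 to 2790 CPM over the 15 libraries. Its log2 fold changes lay between -0.05 ± 0.09 and 0.09 ± 0.09 in the 6 comparisons of groups, and the widest of those 95% intervals ended at -0.24 and 0.29. Xirp1 made up 17.7% ± 0.613 of the pair's level per kilobase in 9M_PoW+DT and 27.4% ± 3.68 in 9M_UT. It made up 14.5% ± 4.54 in 6M_POW_LD, 13.6% ± 2.99 in 6M_PoW and 14.6% ± 3.14 in 6M_UT.

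**Figure D2:**
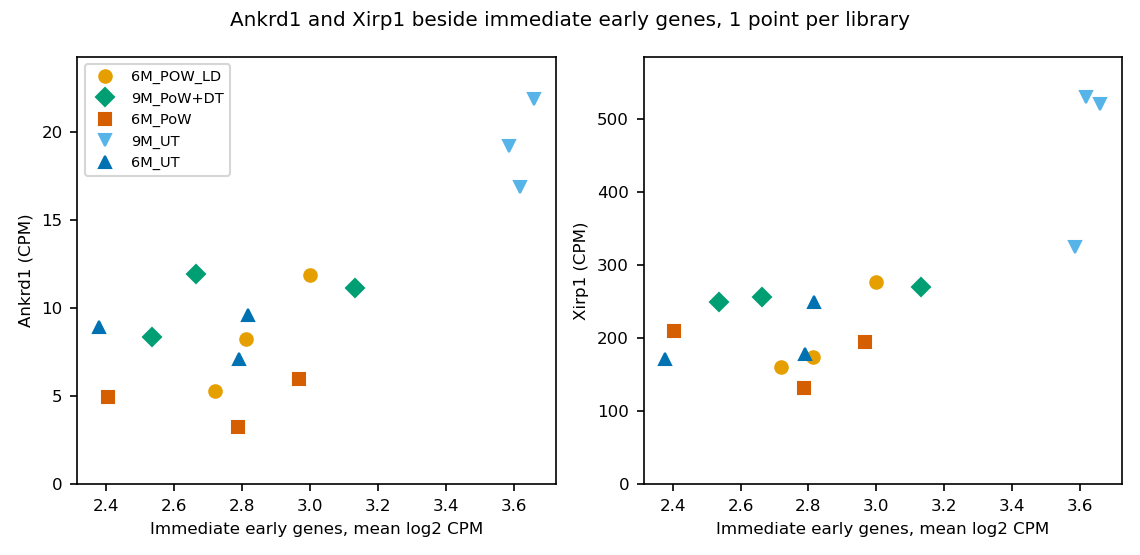
Level of Ankrd1 (left) and Xirp1 (right) in CPM against the mean log2 CPM of 15 immediate early genes, with 1 point per library and groups by colour and shape. The 9M_UT libraries lie at 3.59 to 3.66 on the horizontal axis, beyond the 12 others, and are highest for both genes.

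Immediate early genes, many of which encode transcription factors, respond within minutes of a stimulus. Their mean level stood apart in the same 3 libraries in which Ankrd1 and Xirp1 were highest. Their mean log2 CPM was 2.54 to 3.13 in 9M_PoW+DT, against 3.59 to 3.66 in 9M_UT. It was 2.72 to 2.999 in 6M_POW_LD, 2.40 to 2.97 in 6M_PoW and 2.38 to 2.82 in 6M_UT. Of the 15 genes of that list, 2 were called lower in 9M_PoW+DT than in 9M_UT, beside 0.0201% of all genes called there. They were Fosl2 (-1.40 ± 0.19, adjusted p 0.0209) and Nr4a2 (-2.70 ± 0.39, adjusted p 0.0209). Nr4a2 encodes an orphan nuclear receptor and Fosl2 a partner in AP-1. All 15 had a fold below 0, from -2.70 to -0.07, beside 50.9% of all genes above 0. In 9M_UT over 6M_UT 13 of the 15 were above 0 and 2 below, from -0.67 to 2.79. Atf3 was the 1 called there (2.12 ± 0.28, adjusted p 0.0302), beside 0.0134% of all genes. The part of the immediate early genes in the Ankrd1 and Xirp1 values was not tested.

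Csrp3, on chromosome 7 at 48830398 to 48848033, encodes muscle LIM protein, a Z-disc partner of titin cap and alpha-actinin. It had 69.01, 125.7 and 112.4 CPM in 6M_POW_LD, 65.8, 108.4 and 180.1 CPM in 9M_PoW+DT and 168.0, 87.3 and 102.2 CPM in 6M_PoW. It had 143.8, 76.4 and 195.0 CPM in 9M_UT and 156.0, 111.8 and 99.7 CPM in 6M_UT. Every pair of groups overlapped, and 7.3% of the variance of log2 CPM lay between groups. The folds ran from -0.26 ± 0.45 to 0.18 ± 0.46, and each 95% interval reached beyond 0.70 in both directions, so that sizeable changes of either sign could have gone unseen.

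Flnc encodes filamin C, which ties Z-discs to the membrane and unfolds under tension. Bag3 encodes the co-chaperone that carries strained filamin to autophagy. Flnc lies on chromosome 6 at 29433256 to 29461883 and Bag3 on chromosome 7 at 128523616 to 128546981. Flnc ranged from 728.3 CPM in 6M_PoW replicate 2 to 1857 CPM in 9M_PoW+DT replicate 3. Its group means were 974 ± 110.5 CPM in 6M_POW_LD, 1331 ± 465 in 9M_PoW+DT, 972 ± 211 in 6M_PoW, 1527 ± 254 in 9M_UT and 1220 ± 198 in 6M_UT, with no comparison past the test. Bag3 spanned 134.9 to 177.5 CPM over all libraries, 1.32 times from lowest to highest. The 3 9M_UT libraries of Bag3, at 167.8, 158.3 and 177.5 CPM, were all above the 154.6, 155.9 and 145.7 CPM of 6M_UT, by 0.14 ± 0.08 on the log2 scale (adjusted p 0.784). The 95% intervals of Bag3 in 6M_PoW over 6M_UT (-0.21 to 0.12) and in 6M_POW_LD over 6M_PoW (-0.16 to 0.15) were the narrowest of the 10 genes in those comparisons.

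Nrap, on chromosome 19 at 56320035 to 56390037, encodes nebulin-related anchoring protein, which joins the last actin filaments of a fibre to its membrane and serves as a scaffold when myofibrils are built. It had 1098, 1353 and 1474 CPM in 6M_POW_LD, against 1740, 1877 and 1739 CPM in 6M_UT. The LD libraries were all below the untrained ones, with a log2 fold change of -0.45 ± 0.13 and an adjusted p of 0.0586. This p crossed the threshold without 6M_PoW replicate 2 (0.0382), 6M_POW_LD replicate 6 (0.0499), 9M_UT replicate 1 (0.0444) or 9M_PoW+DT replicate 3 (0.0401), and in DESeq2 (0.0150) and limma-voom (0.0452). In 6M_PoW the gene had 1707, 1350 and 1752 CPM, overlapping with both, at -0.16 ± 0.12 over 6M_UT. At 9 months it had 1621, 1632 and 2034 CPM in 9M_PoW+DT and 1758, 2105 and 2246 CPM in 9M_UT (-0.21 ± 0.12, adjusted p 0.783).

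Actc1, on chromosome 2 at 114047282 to 114053548 (minus strand), encodes cardiac alpha-actin. A CArG box, the element bound by serum response factor (SRF), was found in its RefSeq promoter, as in 1.47% of the promoters searched. Of the 9 genes of the list with a promoter entry, Actc1 was the 1 with a match. The sequence upstream of its RefSeq start is given on the gene's strand, chr2:114052888-114053125 in GRCm38.p6, with the box in capitals. It lies within the span of the deposited gene, which starts further upstream than the RefSeq transcript.
Actc1 upstream run: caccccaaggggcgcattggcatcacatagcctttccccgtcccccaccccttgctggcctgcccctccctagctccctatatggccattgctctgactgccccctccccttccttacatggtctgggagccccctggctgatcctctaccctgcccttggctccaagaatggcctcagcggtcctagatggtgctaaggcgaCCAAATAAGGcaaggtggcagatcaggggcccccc
The match starts 47 bases before the RefSeq start, a position of -47 counted from that start. It is a match of letters, and occupancy was not measured.

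Actc1 had 20.7, 15.7 and 11.6 CPM in 6M_POW_LD, against 4.86, 1.06 and 2.66 CPM in 6M_UT. The lowest LD library stood well above the highest untrained one. The log2 fold change was 2.50 ± 0.48, a ratio of 5.65, with an adjusted p of 0.0117 over 15181 genes. In that comparison 757 genes were called, 4.99% of those tested, and Actc1 was 1 of 10 members. The call held in each of the 15 fits that left out 1 library, at 2.09 to 3.13. It ended with only the 2 groups compared (2.50, adjusted p 0.0871).

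The 6M_PoW libraries of Actc1, at 7.02, 6.13 and 5.62 CPM, were also above all of 6M_UT, by 1.14 ± 0.49, which did not pass (adjusted p 0.476). That fold was 0.73 without 6M_UT replicate 2 and 1.77 without 6M_UT replicate 1. They were below all of 6M_POW_LD, which exceeded them by 1.36 ± 0.45 (adjusted p 0.159 in edgeR, 0.113 in DESeq2 and 0.0321 in limma-voom). Actc1 had 2.95, 2.63 and 1.25 CPM in 9M_PoW+DT, below each 6M_PoW library, at -1.45 ± 0.50 (adjusted p 0.251). Rest, age and series of libraries differ together there too. These detrained muscles overlapped with the 1.59, 4.07 and 3.89 CPM of 9M_UT (-0.47 ± 0.51). The fold of 9M_PoW+DT over 9M_UT less that of 6M_PoW over 6M_UT was -1.61 ± 0.70 (adjusted p 0.498). From low to high the groups ran 9M_PoW+DT, 6M_UT, 9M_UT, 6M_PoW and 6M_POW_LD, and the last 3 of these were separated from each other without overlap. A value rested on 27 to 484 counts.

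Even in 6M_POW_LD, Actc1 was a trace beside skeletal alpha-actin. Acta1 averaged 24115 ± 1054 CPM in 6M_POW_LD, 23032 ± 1007 in 6M_PoW and 19202 ± 277 in 6M_UT, and Actc1 was 0.0626% ± 0.0154 of the pair per kilobase in 6M_POW_LD, against 0.0142% ± 0.00965 in 6M_UT. Acta1 itself was called higher in 6M_POW_LD than in 6M_UT (0.33 ± 0.07, adjusted p 0.00721). Since the actins are alike in sequence and how reads were counted is not stated, reads of Acta1 counted to Actc1 cannot be told apart from its own. Relatives outside the list were tested too, 14 from the actin, LIM domain, filamin and BAG families. In 6M_POW_LD over 6M_UT 2 of the 14 were called, beside 4.99% of all genes. They were Acta1 and cytoplasmic actin (Actb, 0.50 ± 0.14), and the adjusted p of Actb lay only just under the threshold. The 4 cardiac markers listed in the table summed to 2.62 to 5.09 CPM in 6M_POW_LD and 2.16 to 5.50 CPM in 6M_UT, with Nppa and Tnni3 at or near 0. Other cell type markers did move with the groups. The mean log2 CPM of 6 fibro-adipogenic progenitor markers was 5.61 to 6.02 in 6M_POW_LD, 5.46 to 5.88 in 6M_PoW and 4.69 to 5.13 in 6M_UT. That of 6 macrophage markers was 2.51 to 2.79 in 6M_POW_LD, 2.33 to 2.86 in 6M_PoW and 1.85 to 2.00 in 6M_UT. That of 5 Schwann cell markers was 2.69 to 4.00 in 6M_POW_LD and 2.41 to 2.57 in 6M_UT, and in 6M_PoW it overlapped with both, at 2.30 to 2.87. The part of such cells in the Actc1 values was not tested.

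**Figure D3:**
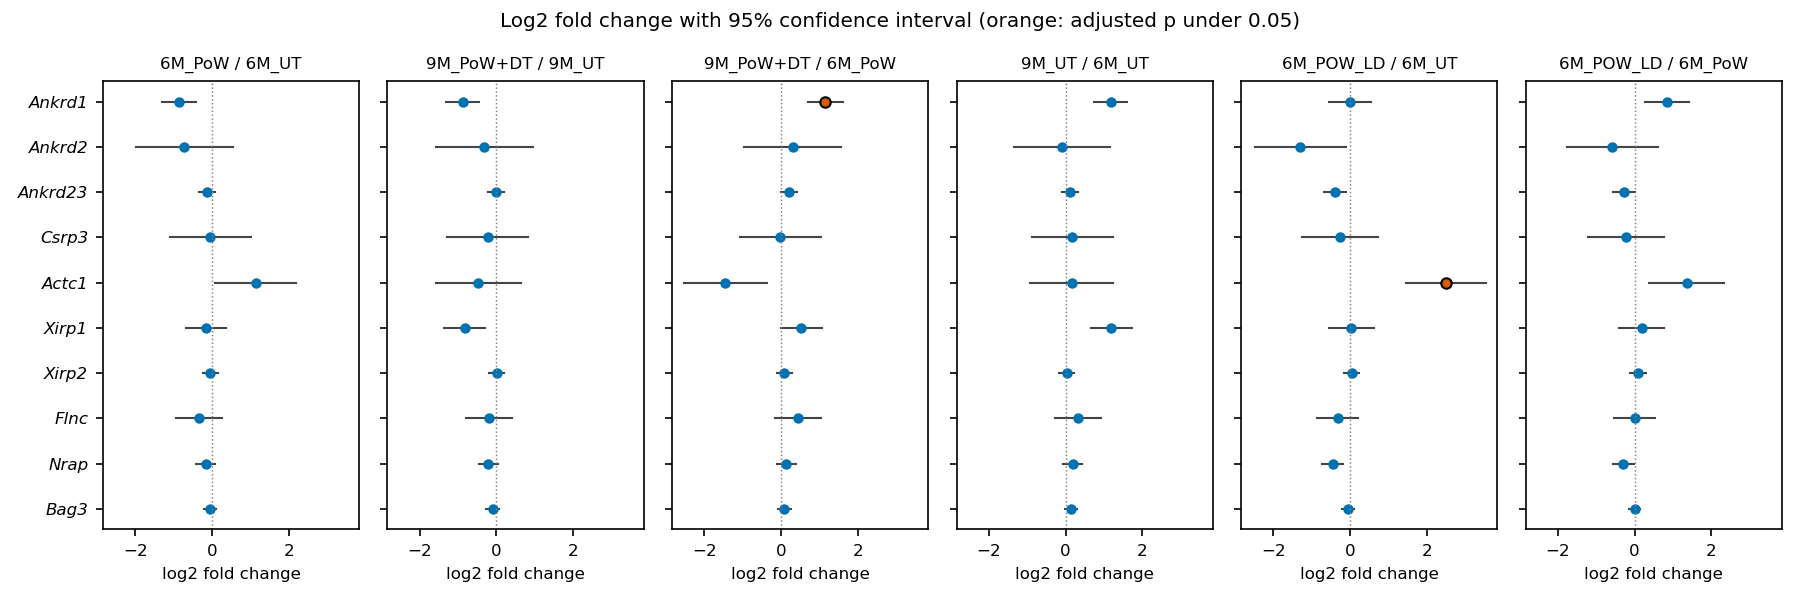
Log2 fold change of each gene (points) with its 95% confidence interval (lines) in 6 comparisons of groups, the group before the slash over the one after it. Ankrd1 in 9M_PoW+DT over 6M_PoW (1.16) and Actc1 in 6M_POW_LD over 6M_UT (2.50) are drawn in orange as the called values, and the intervals of Ankrd2, Csrp3 and Actc1 are the widest.

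Read as a list, the genes leaned slightly below the untrained muscles. Of all genes tested, 48.7% to 51.2% were above 0 in the 6 comparisons of groups. In 6M_PoW over 6M_UT the fold was below 0 for 9 of 10, with a median of -0.14 on the log2 scale beside 0.00 over all genes tested. The signs of Bag3, Csrp3, Xirp1 and Xirp2 there depended on 1 library. None of the 10 was called by edgeR, which called 0% of all genes. At an unadjusted p under 0.05 there were 2, Actc1 and Ankrd1, where 9.75% of all genes passed. DESeq2 called 1 of the 10, beside 112 genes in all, and limma-voom called 0 genes. In 9M_PoW+DT over 9M_UT 9 of 10 were below 0 as well (median -0.22), and edgeR called 0 of the 10 beside 0.0201% of all genes. The signs of Ankrd2, Ankrd23, Csrp3 and Xirp2 in that comparison depended on 1 library. There, 2 passed at an unadjusted p under 0.05, where 6.52% of all genes did. DESeq2 called 2 of the 10, beside 30 genes in all, and limma-voom called 0 genes. The difference between those 2 folds was not called for any of the 10, beside 0.0268% of all genes. Actc1 was the 1 at an unadjusted p under 0.05, where 9.48% of all genes passed. DESeq2 called 0 of the 10, beside 111 genes in all, and limma-voom called 0 genes.

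In 9M_UT over 6M_UT 9 of 10 were above 0 (median 0.17), with 0 called beside 0.0134% of all genes. DESeq2 called 2 of the 10, beside 58 genes in all, and limma-voom called 0 genes. At an unadjusted p under 0.05, 2 of the 10 passed, where 6.72% of all genes did. In 9M_PoW+DT over 6M_PoW 8 of 10 were above 0 (median 0.18), and 4 passed at an unadjusted p under 0.05, where 12.7% of all genes did. In 6M_POW_LD over 6M_UT 7 of 10 were below 0 (median -0.15), and 4 passed at an unadjusted p under 0.05, where 20.0% of all genes did. In 6M_POW_LD over 6M_PoW 5 were above and 5 below, with 0 called by edgeR beside 2.40% of all genes. DESeq2 called 1 (Ankrd1, adjusted p 0.0375), beside 675 genes in all, and limma-voom called 1 (Actc1), beside 380. At an unadjusted p under 0.05, 3 of the 10 passed, where 14.3% of all genes did.

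Separation of the libraries without overlap was found for 2 of the 10 in 6M_PoW over 6M_UT (Actc1 higher, Ankrd1 lower), where 16.2% of all genes did not overlap. It was found for 2 in 9M_PoW+DT over 9M_UT (Ankrd1 and Xirp1 lower, beside 11.9% of all genes) and for 3 in 9M_UT over 6M_UT (Ankrd1, Xirp1 and Bag3 higher, beside 11.8%). It was found for 3 in 9M_PoW+DT over 6M_PoW (Ankrd1 and Xirp1 higher, Actc1 lower, beside 19.2%). In 6M_POW_LD over 6M_UT the 3 were Actc1 (higher), Ankrd2 and Nrap (lower), beside 25.2% of all genes, and in 6M_POW_LD over 6M_PoW the 1 was Actc1, beside 21.4%. With so few genes these counts were not tested against the shares over all genes, and nothing is read from them.

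**Figure D4:**
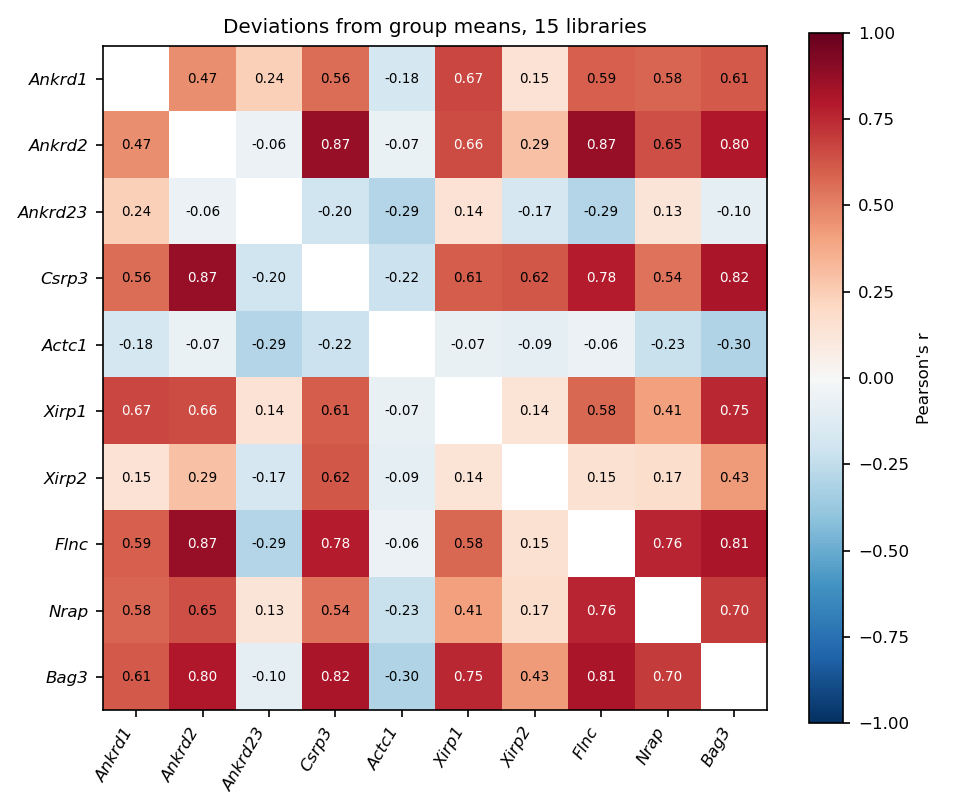
Pearson correlation between each pair of the 10 genes, computed on the deviations of log2 CPM from the group means in 15 libraries, on a colour scale from -1 to 1. Ankrd2, Csrp3, Flnc and Bag3 form a red block with values of 0.78 to 0.87, whereas the row of Actc1 stays between -0.30 and -0.06.

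Within groups, several of these genes went up and down together from muscle to muscle. The deviations from the group mean had a Pearson r of 0.871 for Ankrd2 with Flnc, 0.868 for Ankrd2 with Csrp3, 0.819 for Csrp3 with Bag3, 0.814 for Flnc with Bag3 and 0.802 for Ankrd2 with Bag3 over the 15 libraries. These values are a description: the points share a library's depth and scaling. The highest muscles were shared. In 6M_UT replicate 1, 9M_UT replicate 3 and 9M_PoW+DT replicate 3, Ankrd2 had 174.2, 188.6 and 150.6 CPM and Flnc 1447, 1819 and 1857 CPM, each the highest of its group. Csrp3 was highest of its group in those muscles too, at 156.0, 195.0 and 180.1 CPM. Xirp1 and Ankrd1 had an r of 0.878 over all libraries and 0.665 within groups. Actc1 had an r below 0 with each of the 9 others within groups.

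Slow fibre genes, among which Ankrd2 and Csrp3 are often counted, were not high in those muscles. The mean log2 CPM of the 9 slow markers was 2.91 in 9M_PoW+DT replicate 3, against 4.86 and 4.89 in the others of its group, and 2.37 in 6M_UT replicate 1, against 4.31 and 4.79. In 9M_UT replicate 3 it was 3.92, between the 2.08 and 5.75 of the others. Myh7, the slow myosin, spanned 0.495 to 223 CPM within 9M_UT. Adipocyte markers were high in 1 of the 3 muscles, with a mean log2 CPM of 3.44 in 9M_PoW+DT replicate 3 and at most 1.58 in the 14 others, and their part in these values was not tested.

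**Figure D5:**
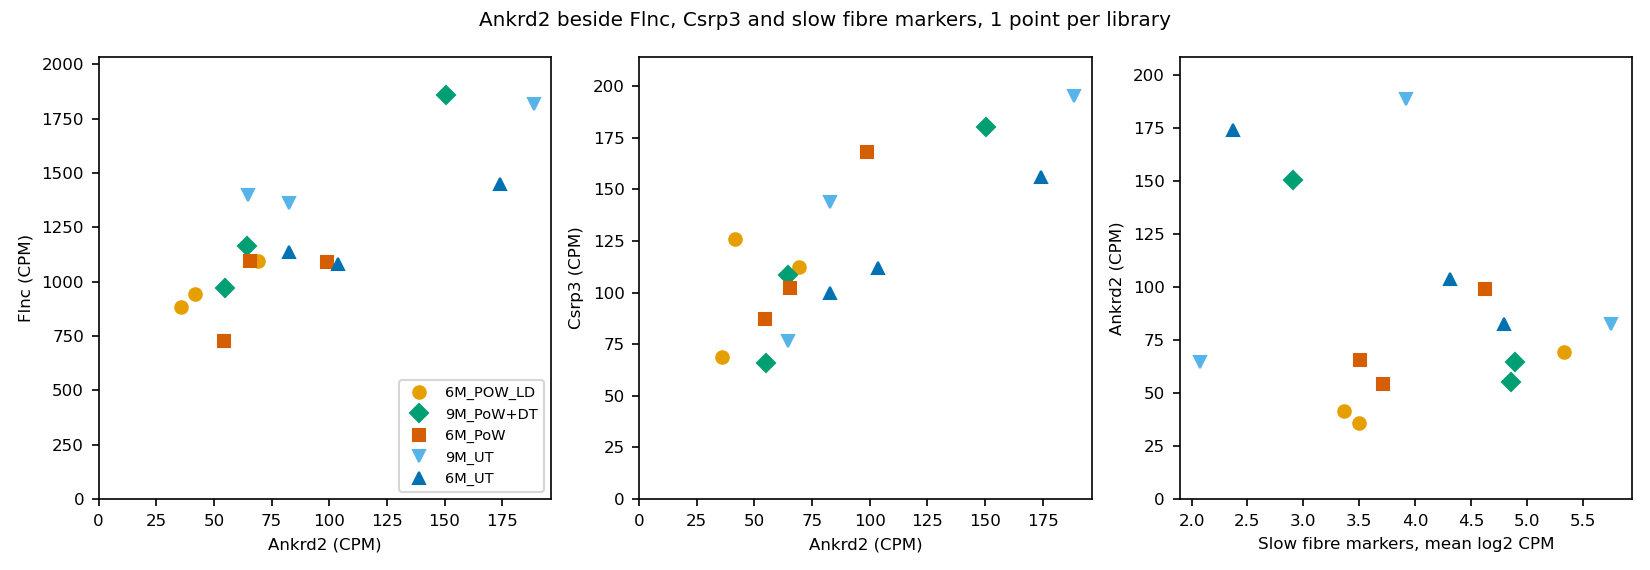
Flnc (left) and Csrp3 (middle) in CPM against Ankrd2 in CPM, and Ankrd2 against the mean log2 CPM of 9 slow fibre markers (right), with 1 point per library. The 3 muscles with Ankrd2 above 150 CPM lie at the upper right in the left and middle panels and at 2.37 to 3.92 on the slow marker axis, which reaches 5.75.

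The genes whose log2 CPM followed each member most closely were sought among 9630 genes over the 15 libraries. For Ankrd1 they were Kcnc4 (r = 0.888), Rbm20 and Ccser2, and for Xirp1 Tnfrsf12a (0.867) and Abra (0.852). Abra encodes STARS, an actin-binding activator of SRF signalling, and Tnfrsf12a the TWEAK receptor. Ankrd2 was closest to Synpo (0.915), Polr3e and the small heat shock gene Hspb7 (0.858). Flnc was closest to Myo18b (0.893), Tjap1 and Cmya5 (0.878), and Bag3 to Gm37240 (0.883), Dennd5b and Tjap1 (0.847). Actc1 was closest to the respiratory chain gene Ndufa4 (0.948) and to Pcnx (0.913), and Nrap to Dazap2 (0.927). The closest genes of Ankrd23, Csrp3 and Xirp2 were Selenoh (0.894), Canx (0.823) and Gmeb1 (0.834). The values rest in part on the same group differences and give no evidence of shared control.

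Among 34 further titin and Z-disc genes, 4 were called higher and 2 lower in 6M_POW_LD over 6M_UT, where 4.99% of all genes were called. Palld, which encodes the actin scaffold palladin, averaged 155 ± 6.07 CPM in 6M_POW_LD and 79.4 ± 2.80 in 6M_UT (0.97 ± 0.06, adjusted p 1.94e-07). Titin cap (Tcap) was called lower, at 1961 ± 165 CPM in 6M_POW_LD and 2767 ± 242 in 6M_UT (-0.50 ± 0.10, adjusted p 0.00622). The Z-disc genes Obsl1 and Actn3 were called too, Obsl1 higher by 0.52 ± 0.11 (adjusted p 0.0104) and Actn3 lower (-0.77 ± 0.15, adjusted p 0.0137). In 6M_POW_LD over 6M_PoW 3 of the 34 were called, beside 2.40% of all genes, all higher and led again by Palld (0.96 ± 0.06, adjusted p 2.15e-07). In 6M_PoW over 6M_UT none of the 34 was called, and Tcap had the smallest p (-0.45 ± 0.10, adjusted p 0.160). In 9M_PoW+DT over 6M_PoW, Myoz3, which encodes a calsarcin of fast fibres, was the 1 of the 34 called, beside 0.295% of all genes. It was higher, at 336 ± 22.5 CPM in 9M_PoW+DT and 238 ± 7.46 in 6M_PoW (0.50 ± 0.08, adjusted p 0.0174). In 9M_PoW+DT over 9M_UT and in 9M_UT over 6M_UT edgeR called 0 of the 34, with 1 and 2 at an unadjusted p under 0.05.

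Of 18 genes of the MRTF, SRF, YAP and TEAD pathways, which turn actin dynamics and tension into transcription, Srf was the 1 called. It was called in 6M_POW_LD over 6M_UT, beside 4.99% of all genes, and in 6M_POW_LD over 6M_PoW, beside 2.40%. It was higher in 6M_POW_LD than in 6M_UT (88.8 ± 3.79 and 72.2 ± 5.12 CPM, 0.30 ± 0.08, adjusted p 0.0313) and than in 6M_PoW (0.35 ± 0.08, adjusted p 0.0185). Actc1 was highest in the same libraries, and the part of Srf in the Actc1 values was not tested. Of 13 chaperone partners of Bag3, Sqstm1, the autophagy receptor p62, was the 1 called in 6M_POW_LD over 6M_UT, beside 4.99% of all genes. It was lower there (-0.57 ± 0.15, adjusted p 0.0383). None of the 13 was called in the comparisons without LD libraries. Of 11 tested genes of immature and regenerating fibres none was called in any comparison. In 6M_POW_LD over 6M_UT 4 of them passed at an unadjusted p under 0.05, beside 20.0% of all genes, led by Myod1 (1.21 ± 0.39, adjusted p 0.112) and Myog (0.82 ± 0.29, adjusted p 0.117), the master regulators of myogenesis. In 6M_PoW over 6M_UT 8 of the 11 were above 0 (median 0.31), and 2 higher and 1 lower passed at an unadjusted p under 0.05, where 9.75% of all genes did. The 1 with the smallest p was the embryonic light chain gene Myl4, which had 1.52 ± 0.405 CPM in 6M_PoW and 3.18 ± 1.11 in 6M_UT (-1.05 ± 0.30, adjusted p 0.257).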

How the data were processed

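Plantaris RNA libraries were grouped by title. Expected counts for each gene were deposited in 1 table, where 26.2% to 31.3% of the values in a library were fractional. STAR 2.7.3a, DESeq2, Partek and mm10 are named per the submitters' processing notes, and neither how reads were counted nor the use of strand is stated. After rounding these to integers, filterByExpr chose the genes, trimmed mean of M values factors scaled the libraries, and edgeR 4.0.16 (R 4.3.3) fitted a robust quasi-likelihood model with 1 mean per group. The fit of 12 libraries without LD held 14919 genes, and the fit of all 15, used where LD libraries are compared, held 15181. P-values were adjusted by Benjamini-Hochberg over all genes of a comparison, and a gene was called at an adjusted p under 0.05. Errors of log2 fold changes are SE, those of levels SD over 3 libraries. CPM are counts scaled to an effective total of 1000000. The fit was tested on simulated data. Alternatives were DESeq2 1.42.0, limma 3.58.1 (voom), other size factors and filters, other sets of libraries, a replicate block, each library left out, and other readings of the labels.

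The members and lists were chosen with earlier results of these data known, and lists were described without tests. Named genes were the members, list genes with the smallest p, members of the same families, and the 3 genes most alike in log2 CPM with an average of at least 2. Same-numbered libraries did not deviate together (correlations from -0.218 to 0.154), so numbers were not taken as pairs. Nothing says that replicates are separate mice, so p-values measure the spread between these samples. Gene ends are the deposited stop less 1, and lengths are from GENCODE M21. Ankrd23, Xirp1, Nrap and Bag3 overlap annotated neighbours (Gm42417, Cx3cr1, Gm17197 and Habp2, 2610306O10Rik), each with at most 5.61 CPM in a library, and their reads cannot be told apart. Promoters are from RefSeq on GRCm38.p6. They run from 250 bases before the start and were searched on both strands.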

Additional observations from a re-analysis of the deposited data

How the results depend on the processing

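Under the alternatives other than new readings of the labels, the median fold of the 10 genes moved by less than 0.214 on the log2 scale. That is the pooled SD between replicates of the members' mean log2 CPM, and the medians were of about that size or smaller. Without 1 library, the median ran from -0.22 to -0.03 in 6M_PoW over 6M_UT and from -0.42 to -0.06 in 9M_PoW+DT over 9M_UT. It ran from 0.11 to 0.33 in 9M_UT over 6M_UT and from 0.08 to 0.29 in 9M_PoW+DT over 6M_PoW. It was -0.33 to -0.03 in 6M_POW_LD over 6M_UT, -0.11 to 0.10 in 6M_POW_LD over 6M_PoW and -0.18 to 0.14 in the difference. Of 1410 values of single genes under these alternatives, 1309 kept their direction and side of the threshold, 22 crossed to an adjusted p under 0.05, 10 crossed back and 69 changed sign, none of the last with an adjusted p under 0.05. The cause of these changes was not tested.

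DESeq2 called 112 genes and 1 of the 10 in 6M_PoW over 6M_UT, 30 and 2 in 9M_PoW+DT over 9M_UT, 111 in the difference of those folds, 58 and 2 in 9M_UT over 6M_UT, 348 in 9M_PoW+DT over 6M_PoW, 1190 and 3 in 6M_POW_LD over 6M_UT, and 675 and 1 in 6M_POW_LD over 6M_PoW. limma-voom called 0 genes in 9M_PoW+DT over 9M_UT, 0 in the difference, 0 in 9M_UT over 6M_UT, and 24 and 0 of the 10 in 9M_PoW+DT over 6M_PoW. It called 809 genes and 2 of the 10 in 6M_POW_LD over 6M_UT, and 380 and 1 in 6M_POW_LD over 6M_PoW. With no filter on low counts, 8 genes were called in 6M_PoW over 6M_UT, 10 in the difference, 10 and 1 of the 10 in 9M_UT over 6M_UT, and 81 in 9M_PoW+DT over 6M_PoW. With a stricter filter, 0 genes were called in 9M_PoW+DT over 9M_UT, 0 in 9M_UT over 6M_UT, and 833 and 2 of the 10 in 6M_POW_LD over 6M_UT.

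With only the groups compared, 4 genes were called in 6M_PoW over 6M_UT, 18 in 9M_PoW+DT over 9M_UT, 10 and 1 of the 10 in 9M_UT over 6M_UT, and 387 and 0 of the 10 in 6M_POW_LD over 6M_UT. Of the 10, 0 were then called in 9M_PoW+DT over 6M_PoW, beside 57 genes in all, and 1 in 6M_POW_LD over 6M_PoW, beside 443. With all 15 libraries, 4 genes were called in 9M_UT over 6M_UT, and 67 and 0 of the 10 in 9M_PoW+DT over 6M_PoW. With the replicate number as a block, 1 gene was called in 6M_PoW over 6M_UT, 5 in 9M_UT over 6M_UT, and 19 and 0 of the 10 in 9M_PoW+DT over 6M_PoW, where Ankrd1 had 1.18 (adjusted p 0.0528). No other call among the 10 changed under the block in the 5 comparisons without LD libraries, and those with LD were not run with it, since replicates 4 to 6 share no number with the others. With the 9-month groups exchanged, 0 genes were called in the difference and 0 in 9M_UT over 6M_UT. With the LD libraries added to 6M_PoW, 29 genes were called in 6M_PoW over 6M_UT and 2 in the difference, and 1 in the difference with them added to 6M_UT. Values of the 10 genes under these readings were added after seeing the data, and 28 of 80 changed sign, none with an adjusted p under 0.05. With the 9-month groups exchanged, the median fold was 0.22 in 9M_PoW+DT over 9M_UT and 0.32 in the difference. In 9M_PoW+DT over 9M_UT, Ankrd1 was then at 0.88, Ankrd2 at 0.31, Ankrd23 at 0.0225, Csrp3 at 0.23, Actc1 at 0.47, Xirp1 at 0.83, Xirp2 at -0.0119, Flnc at 0.20, Nrap at 0.21 and Bag3 at 0.0983. In the difference, Ankrd1 was at 1.74, Csrp3 at 0.27, Xirp1 at 0.99, Nrap at 0.36 and Bag3 at 0.15. In 9M_UT over 6M_UT, Csrp3 was at -0.0520, Actc1 at -0.31 and Nrap at -0.0177, and in 9M_PoW+DT over 6M_PoW Csrp3 was at 0.22. With the LD libraries added to 6M_PoW, Nrap was at 0.0861 in the difference. With them added to 6M_UT, Ankrd23 was at 0.0591, Csrp3 at 0.0838, Actc1 at -0.59 and Nrap at 0.0514 in 6M_PoW over 6M_UT, and Ankrd2 at -0.10, Ankrd23 at -0.0827, Actc1 at 0.12 and Flnc at -0.0230 in the difference.

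In 6M_POW_LD over 6M_PoW, Flnc was at -0.0003 in DESeq2, -0.0002 with median of ratios factors, -0.0059 without a filter and -0.0020 with the stricter one, and Bag3 at 0.0021 in limma-voom. The difference of folds for Ankrd1 was 0.0103 in limma-voom.

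Leaving out each library in turn gave 0 to 10 called genes in 6M_PoW over 6M_UT, 1 to 6 in 9M_PoW+DT over 9M_UT, 0 to 26 in the difference, 1 to 15 in 9M_UT over 6M_UT, 0 to 109 in 9M_PoW+DT over 6M_PoW, 288 to 827 in 6M_POW_LD over 6M_UT and 157 to 428 in 6M_POW_LD over 6M_PoW. Of the 10, 0 to 1 were called in 9M_UT over 6M_UT, 0 to 1 in 9M_PoW+DT over 6M_PoW, 1 to 3 in 6M_POW_LD over 6M_UT and 0 to 1 in 6M_POW_LD over 6M_PoW. Folds whose sign depended on 1 library were, in 6M_PoW over 6M_UT, those of Bag3 (-0.0841 to 0.0097), Csrp3 (-0.37 to 0.17), Xirp1 (-0.29 to 0.0302) and Xirp2 (-0.13 to 0.0148). In 9M_PoW+DT over 9M_UT they were Ankrd2 (-0.91 to 0.29), Ankrd23 (-0.14 to 0.0377), Csrp3 (-0.67 to 0.10) and Xirp2 (-0.0631 to 0.0898). In 9M_UT over 6M_UT they were Actc1 (-0.25 to 0.78), Ankrd2 (-0.71 to 0.26), Csrp3 (-0.15 to 0.47) and Xirp2 (-0.0442 to 0.11), and in 9M_PoW+DT over 6M_PoW Ankrd2 (-0.29 to 0.59) and Csrp3 (-0.45 to 0.32). In 6M_POW_LD over 6M_UT they were Ankrd1 (-0.34 to 0.23), Xirp1 (-0.26 to 0.22) and Xirp2 (-0.0523 to 0.0875). In 6M_POW_LD over 6M_PoW they were Bag3 (-0.0604 to 0.0335), Csrp3 (-0.40 to 0.11), Flnc (-0.17 to 0.10), Xirp1 (-0.10 to 0.34) and Xirp2 (-0.0070 to 0.17). In the difference they were Ankrd1 (-0.24 to 0.19), Ankrd2 (-0.19 to 1.01), Ankrd23 (-0.0143 to 0.17), Bag3 (-0.11 to 0.0007), Csrp3 (-0.63 to 0.14), Flnc (-0.19 to 0.31), Nrap (-0.17 to 0.0237) and Xirp2 (-0.0176 to 0.14).

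Depth limits Actc1 and Ankrd1 most, since they rest on 27 to 484 and 88 to 470 counts a library. With 3 libraries a group, the SE of a fold was 0.55 for Ankrd2 and 0.46 for Csrp3 in 6M_PoW over 6M_UT, which limits what could be seen of them.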
